A study of Mus musculus with 3072 samples.

Results

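Microglia of the hippocampus were compared with microglia of the cortex in male APP/PS1-ApoeKO mice aged 18 months. All cells of this genotype with read counts from either region were taken, 655 of the 1878 cells in the count table, 49.01% of them from hippocampus and 50.99% from cortex. The cells had been sorted from dissociated tissue as live single cells by CD11b, a surface integrin of myeloid cells, and their polyadenylated RNA was read with a modified SmartSeq2 protocol. Both tissues carry the APPswe/PS1dE9 transgenes, which encode mutant human amyloid precursor protein and presenilin 1 under a prion protein promoter, and both lack Apoe in every cell type and not in microglia alone. The labels name no animals, so each tissue counted as 1 sample and no test between the tissues was possible. Each tissue was sequenced in 2 lanes, hippocampus in mglia35 (25.2% of the 655 cells) and mglia36 (23.8%) and cortex in mglia33 (25.2%) and mglia34 (25.8%), so that tissue and lane cannot be told apart. Lanes mglia35 and mglia33 held the titled plates 1 and 2 of their tissue, and mglia36 and mglia34 the plates 3 and 4. Values by lane are given below in the order mglia35 and mglia36 for hippocampus, then mglia33 and mglia34 for cortex.

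Microglia are the resident macrophages of the brain. In unperturbed tissue they hold a homeostatic programme of surface receptors and secreted factors. Near amyloid plaques many of them lower part of that programme and switch on an activated one, rich in lysosomal, lipid-handling and phagocytic genes. Apolipoprotein E, a lipid carrier that binds the receptor Trem2, is itself among the activated genes in plaque-bearing mice. Cortex and hippocampus both form plaques in APP/PS1 mice, and the comparison asks whether microglia of the 2 regions differ when Apoe is missing.

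The lanes held between 69729916 and 81849062 reads. The median cell had 2045, 2166.5, 2362 and 2105 genes by lane, and the median share of ribosomal RNA was 9.62%, 11.4%, 14.1% and 7.63%. The median share of mitochondrial messenger RNA was 0.979%, 0.925%, 1.02% and 1.11%. Levels are RPM, the reads of a gene per 1e6 reads, after the cells of a lane or tissue were added up. Cortex lane mglia33 stands apart in having no labelled depth for any of its cells, and the results were also computed without it. No 2 cells were identical (0 pairs).

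Apoe (chromosome 7, positions 19696109 to 19699188 on GRCm38, minus strand) was near 0 in every lane, at 0, 1.38, 0.0714 and 0.0669 RPM. In APP/PS1 mice of 17 months, which keep the gene, it stood at 12950.5 and 10924 RPM in the hippocampal lanes and 10557 and 15952 RPM in the cortical lanes. The level of Apoe in these lanes thus goes with the knockout in the labels.

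Few genes that were read in a fair share of cells differed by 2-fold between the tissues. Of 12717 genes with a mean of at least 1 RPM, 791 were higher in hippocampus by 2-fold or more (6.22%) and 1252 lower by that factor (9.85%), on ratios with 0.5 RPM added. Under TMM scaling, which shifts the median of all genes by 0.13 from -0.10 to 0.03 on the log2 scale, the counts were 962 and 1007, so that the share of higher genes among them moved from 38.7% to 48.9%. A narrower set of 5987 genes had 20 RPM or more and was read in 10% or more of the cells of 1 tissue. Of these, 51 were 2-fold higher (0.852%), and 1.92% were 2-fold lower. Among 876 genes read in at least 50% of the cells of 1 tissue, none was 2-fold higher (0%) and 1 was 2-fold lower (0.114%). No gene had 20 RPM in both lanes of 1 tissue and no read in the other (0 and 0).

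**Figure D1:**
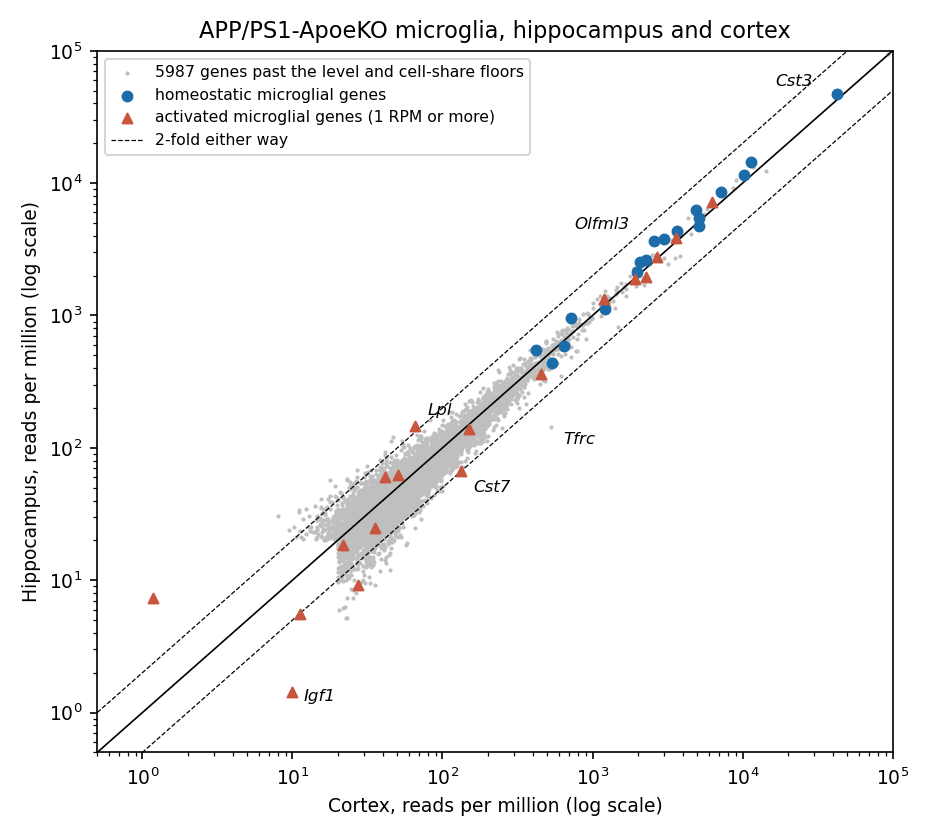
Level in RPM in cortex (x axis) and hippocampus (y axis) on log scales; each grey point is 1 of 5987 genes, blue circles are homeostatic genes, red triangles activated genes, and dashed lines mark 2-fold. The homeostatic genes lie close to the line of equality, while Cst7 lies near the lower dashed line and Tfrc and Igf1 below it; Gpnmb falls outside the plotted range.

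Differences of 2-fold were also frequent between the lanes of 1 tissue, though less so than between tissues. On the same 5987 genes, 447 to 490 differed by 2-fold or more in either direction between a hippocampal and a cortical lane. Their share was 7.47% for mglia35 over mglia33, 8.18% for mglia35 over mglia34, 7.9% for mglia36 over mglia33 and 8.07% for mglia36 over mglia34. Between the cortical lanes the share was 5.91%, and between the hippocampal lanes it was 6.61%, 396 genes. In all 4 pairings of a hippocampal with a cortical lane, 6 genes were 2-fold higher (0.1%) and 15 were 2-fold lower (0.251%). For the 876 widely read genes, the median size of the log2 difference was 0.19 to 0.22 between tissues, 0.20 between the cortical lanes and 0.16 between the hippocampal lanes. The median size between the cortical lanes lay within the range found between tissues.

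**Figure D2:**
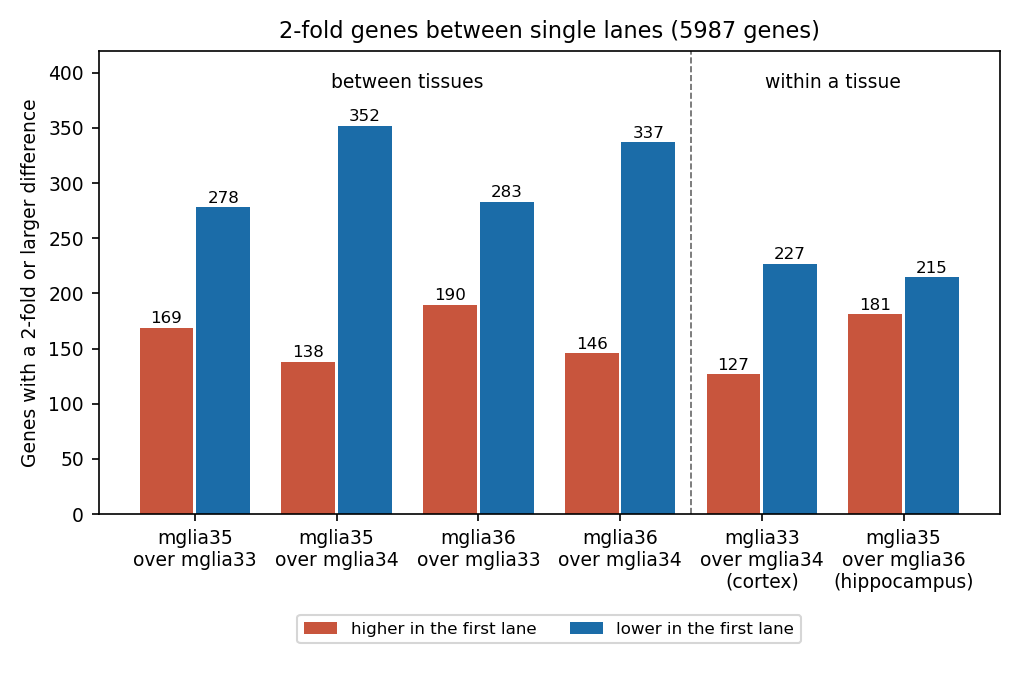
Number of genes, of 5987, that were at least 2-fold higher (red) or lower (blue) in the first lane of each pair (y axis); the 4 pairs on the left compare hippocampus with cortex, the 2 on the right compare lanes of 1 tissue. In every pair the lower genes outnumber the higher ones, and the sum of both is 447 to 490 between tissues and 396 or fewer within a tissue.

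Lanes mglia33 and mglia34 were compared gene by gene to show this spread inside the cortex. Zfp236, a zinc finger gene, had 32.4 RPM in mglia33 and 0.481 RPM in mglia34. Ubtd1, a ubiquitin domain gene, had 49.96 and 2.03 RPM, and Rps6ka3, a ribosomal S6 kinase gene, 36.8 and 3.65 RPM. In the other direction Zc3h6 had 2.41 and 26.98 RPM, Pja1, a ubiquitin ligase gene, 7.85 and 73.3 RPM, and Ccdc134 2.53 and 25.9 RPM. Each of these 6 genes was read in no more than 11.4% of cortical cells, and none of them separated the hippocampal from the cortical lanes.

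Homeostatic microglial genes were on the whole slightly higher in hippocampus. Of 18 listed genes, 14 were higher and 4 lower, with a median log2 ratio of 0.23, while 41.8% of all genes considered were higher. None of them reached 2-fold. In 11 of the 18 both hippocampal lanes lay above both cortical lanes, against 13.4% of all genes considered and 16.6% of the widely read genes. In 4 both hippocampal lanes lay below, against 22.8% and 26.5%. Most of these markers are abundant, and the 79 genes with a mean of 1000 RPM or more had a median log2 ratio of 0.11, with 31 above and 13 below, and the 54 of them outside the homeostatic and lysosome lists had 0.04. By pairing of lanes the homeostatic median ranged from 0.09 to 0.38, and between the cortical lanes, mglia33 over mglia34, it was -0.16.

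Olfml3, a secreted glycoprotein of microglia (chromosome 3, positions 103722222 to 103738001, minus strand), had the largest ratio of the list. It measured 3814 and 3468 RPM in the hippocampal lanes and 2339 and 2757 RPM in the cortical lanes, a ratio of 1.42 (95% interval 1.41 to 1.43). Such intervals are exact for the read counts and cover counting error only, since SmartSeq2 reads carry no molecular identifiers and several can stem from 1 molecule. The spread between lanes is wider. Slc2a5, a fructose transporter gene, measured 1083 and 860 RPM against 666 and 768 RPM. Both genes were higher in each hippocampal lane than in either cortical lane.

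Several surface receptors of resting microglia followed the same order of lanes. Selplg, a ligand of selectins, measured 6300 and 6238 RPM in hippocampus and 4741 and 5064 RPM in cortex, a ratio of 1.28. Csf1r, the receptor on which microglial survival depends, measured 8628 and 8593 RPM against 6804 and 7577 RPM, a ratio of 1.20. Tmem119, Cx3cr1, P2ry13 and Gpr34 had ratios of 1.20, 1.12, 1.24 and 1.15 with the hippocampal lanes above the cortical ones in each. P2ry12, a purine receptor, had 5986 and 5071 RPM against 4591 and 5566 RPM, so that its lanes overlapped. Sparc, a matrix-binding protein, had a ratio of 1.27 and no overlap of lanes, and for Fcrls and Cst3 the lanes overlapped.

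The 4 lower members included the transcriptional regulators of the list. Mef2c, a transcription factor gene, measured 449 and 433 RPM in hippocampus and 489 and 576 RPM in cortex. Sall1, which holds microglial identity, measured 594 and 577 RPM against 668 and 634 RPM. Siglech, a sialic acid-binding receptor gene, measured 4983 and 4510 RPM against 5241 and 5083 RPM, and Tgfbr1, a TGF-beta receptor gene, 1076 and 1147 RPM against 1217 and 1192 RPM. Their ratios were 0.824, 0.899, 0.916 and 0.926 in that order. With TMM scaling the log2 ratios of Siglech and Tgfbr1 turned to 0.011 and 0.026, while those of Sall1 and Mef2c were -0.016 and -0.14.

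**Figure D3:**
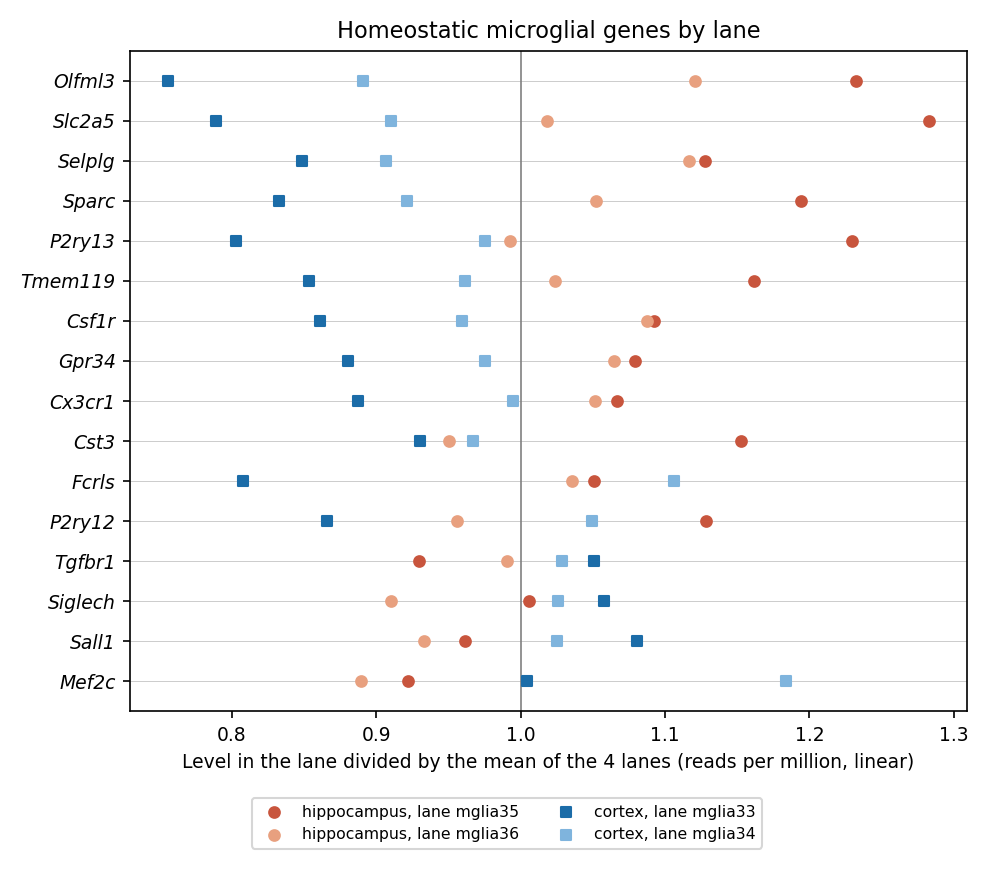
Level of 16 of the 18 homeostatic genes in each lane, divided by the mean of the 4 lanes (x axis, linear); circles are hippocampal and squares cortical lanes, with genes ordered by their ratio. Hippocampal lanes lie to the right for most genes and to the left for Mef2c, Sall1, Siglech and Tgfbr1, and mglia33 is the lowest lane for most genes.

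Lysosomal genes leaned in the same direction. Of 22 genes, 16 were higher in hippocampus, the median log2 ratio was 0.15, and in 9 the hippocampal lanes lay above and in 3 below, against 13.4% and 22.8% of all genes considered. Among the 79 genes with a mean of 1000 RPM or more, 31 lay above and 13 below, with a median of 0.11. The 54 of them outside the homeostatic and lysosome lists had 15 above, 11 below and a median of 0.04. Hexa, a subunit gene of lysosomal hexosaminidase, measured 1434 and 1260 RPM against 1087 and 1068 RPM, a ratio of 1.24. Lgmn, a cysteine protease gene, measured 5995 and 5055 RPM against 3944 and 4714 RPM. Lipa, the lysosomal acid lipase gene, was on the other side at 124.2 and 140 RPM against 173.5 and 170 RPM, as was Cd63, a tetraspanin of late endosomes, at 342.1 and 375.2 RPM against 416 and 487 RPM. The summed level of the list was 69453 and 64912 RPM against 55854 and 60571 RPM, and by pairing its median ran from -0.0044 to 0.22.

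Activated, plaque-associated genes did not differ in a common direction. Of 19 considered, 9 were higher and 10 lower in hippocampus with a median log2 ratio of -0.03, which was 0.11 under TMM scaling. In 2 the hippocampal lanes lay above and in 3 below, beside 13.4% and 22.8% of all genes considered. Without mglia36 the median was -0.40, and it was 0.013 to 0.062 without each of the other lanes, with genes filtered again. By pairing of lanes, on the same 19 genes, it ran from -0.055 to 0.12. Their summed level was 20410 and 19393 RPM in hippocampus and 18490 and 19309 RPM in cortex. In cells thinned to 100000 reads, 5 or more of the 16 activated genes under 500 RPM were read in 9 hippocampal cells (2.82%, 95% Clopper-Pearson interval 1.30% to 5.29%) and in 6 cortical cells (1.80%, 0.662% to 3.87%). Spp1 and Dkk2, secreted factors of activated microglia, had no read in either tissue.

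Cst7, a lysosomal protease inhibitor among the most used markers of plaque-associated microglia (chromosome 2, positions 150570415 to 150578944, plus strand), was lower in hippocampus. It measured 57.4 and 74.6 RPM in hippocampus and 158.1 and 109.2 RPM in cortex, a ratio of 0.502 (0.490 to 0.514). Both hippocampal lanes lay below both cortical lanes. It was read in 10.97% (7.76% to 14.9%) of thinned hippocampal cells and 14.7% (11.1% to 18.9%) of cortical cells. With the highest cell of each tissue left out, the log2 ratio went from -0.99 to -0.66.

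The other genes with a low cell share varied between lanes. Clec7a, a receptor for glucans, measured 24.5 and 93.7 RPM in hippocampus and 46.1 and 55.4 RPM in cortex. Itgax, which encodes the integrin CD11c, measured 8.33 and 27.1 RPM against 30.7 and 13.03 RPM, and Axl, a receptor kinase gene, 44.7 and 73.7 RPM against 44.8 and 37.8 RPM. In each of the 3 genes the lanes of the tissues overlapped. Lpl, lipoprotein lipase, measured 38.05 and 240 RPM against 119.004 and 16.3 RPM, and 1 cell gave 78.4% of its hippocampal reads. All hippocampal reads of Gpnmb, at 30.5 RPM, came from 1 cell of mglia36, and 93.7% of the cortical reads of Lgals3, at 27.3 RPM, from 1 cell. Igf1, a growth factor gene, had 9.86 RPM in cortex and 1.42 RPM in hippocampus, where 1 cell held all its reads. Read in nearly every cell, Trem2 measured 2887 and 2692 RPM against 2689 and 2697 RPM and its adaptor gene Tyrobp 2179 and 1782 RPM against 2264 and 2298 RPM.

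Shares of cells gave a view that a single cell of very high level cannot dominate. Cells of 1 tissue are not replicates of it, so the intervals of these shares are a description of the cells read and do not compare the tissues.

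**Figure D4:**
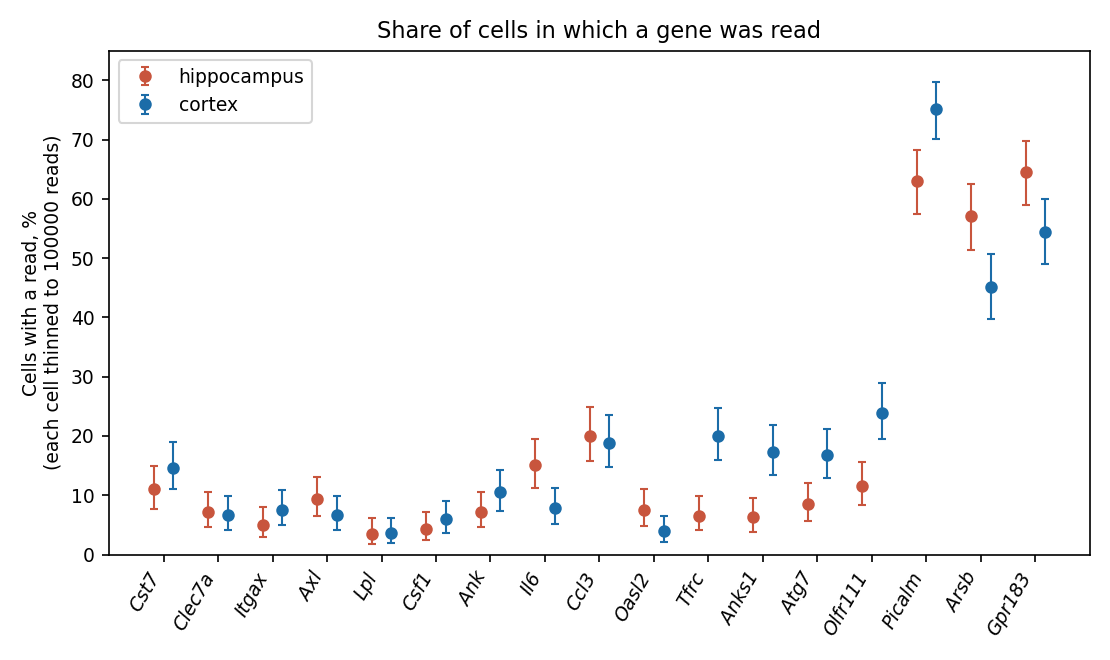
Share of cells with a read (y axis, percent) for 17 genes in hippocampus (red) and cortex (blue) after thinning each cell to 100000 reads; bars are 95% Clopper-Pearson intervals of the share and cover counting of cells only. Tfrc, Anks1, Atg7, Olfr111 and Picalm lie lower in hippocampus and Il6 lies higher, and cells are not replicates of a tissue.

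Inflammatory chemokine and cytokine genes had a median log2 ratio of 0.48 over 11 members, 8 of them higher, but the leading ones rested on single cells. Ccl3, a chemokine gene, measured 212.8 and 42.2 RPM in hippocampus and 49.1 and 44.6 RPM in cortex, and 1 cell of mglia35 gave 66.8% of its hippocampal reads. That tissue's reads of Ccl4 and Ccl2 came to 86.98% and 94.1% from 1 cell each. With the highest cell of each gene left out, the list median was -0.13, and without lane mglia35 it was -0.09. Ccl3 was read in 20.1% of thinned hippocampal and 18.9% of cortical cells.

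Il6, the interleukin 6 gene (chromosome 5, positions 30013114 to 30019981, plus strand), was the 1 member with both hippocampal lanes above both cortical lanes. It measured 38.7 and 42.1 RPM against 18.97 and 26.8 RPM, a ratio of 1.76 (1.69 to 1.84). It was read in 15.05% (11.3% to 19.5%) of hippocampal and 7.78% (5.15% to 11.2%) of cortical thinned cells. Tgfb1, the gene of a cytokine that maintains microglia, was the 1 member below in all pairings, at 22.03 and 22.1 RPM against 37.1 and 29.9 RPM. The chemokine and cytokine list thus had 1 of 11 genes above and 1 below, where 13.4% and 22.8% of all genes considered did. In the TGF-beta pathway list, 10 of 14 genes were lower in hippocampus, with a median log2 ratio of -0.042 that turned to 0.094 under TMM scaling. By lanes 5 lay below and 1 above, where 22.8% and 13.4% of all genes considered did. Among the 5, Ski, a repressor of Smad signalling, measured 187.6 and 164.5 RPM against 283.4 and 233.9 RPM, and Smad7, an inhibitor of the receptor, 11.7 and 15.8 RPM against 19.98 and 27.4 RPM.

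Interferon response genes, which viral sensing and ageing switch on, were split: 10 of 19 were higher and 9 lower, with a median log2 ratio of 0.04. Hippocampal lanes lay above in 3 of the 19 (13.4% of all genes considered) and below in 2 (22.8%). Oasl2, an oligoadenylate synthetase-like gene, measured 18.5 and 55.9 RPM against 15.04 and 12.8 RPM, a ratio of 2.79 (2.65 to 2.94). Its share of thinned cells was 7.52% (4.88% to 10.99%) in hippocampus and 3.89% (2.09% to 6.56%) in cortex. Slfn2 measured 61.6 and 72.6 RPM against 45.8 and 31.6 RPM, and Ifi204, an intracellular DNA sensor gene, 29.7 and 56.8 RPM against 21.9 and 28.7 RPM. Both belong to families of similar genes, and their reads may be shared with relatives. Ifi27l2a lay below at 20.4 and 23.3 RPM against 29.7 and 43.1 RPM. The list's median ran from -0.22 with mglia35 over mglia33 to 0.30 with mglia36 over mglia33.

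Antigen presentation genes load peptides for T cells. The MHC class II list had a median log2 ratio of 0.28 over 9 genes, and -0.0075 to 0.59 by pairing of lanes. By lanes 2 genes lay above and 0 below, beside 13.4% and 22.8% of all genes considered. Cd74, the invariant chain gene, measured 20.8 and 66.05 RPM against 19.9 and 22.4 RPM, so that its lanes overlapped. H2-Aa, a class II chain gene, had 91.8% of its hippocampal reads in 1 cell. Of 12 class I genes, 8 were higher, with a median of 0.14, and 5 lay above and 0 below by lanes, beside 13.4% and 22.8% of all genes considered. H2-K1, a classical class I gene, measured 857 and 894 RPM against 779 and 700 RPM, and H2-T23 303.7 and 333.98 RPM against 232.7 and 257.4 RPM. Class I genes resemble each other in sequence, so their reads may be shared. All 9 complement genes considered were higher, where 41.8% of all genes were, at a median log2 ratio of 0.15, and 3 of them lay above by lanes (13.4% of all genes), C1qa, C1qb and the complement receptor subunit gene Itgb2. Itgb2 measured 702 and 755 RPM against 530 and 637 RPM.

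Cholesterol synthesis, the source of membrane sterol in cells short of imported lipid, had a median log2 ratio of 0.31 over 16 genes, 11 of them higher. In 3 genes the hippocampal lanes lay above and in 0 below, where 13.4% and 22.8% of all genes considered did. Over the pairings of lanes, on the same 16 genes, the median ran from 0.21 to 0.38. With 1 lane left out the genes were filtered again at 1 RPM, so the members could change. The median was then -0.14 without mglia36, 0.022 without mglia33, 0.36 without mglia34 and 0.50 without mglia35. Sc5d, a late enzyme gene of the pathway, measured 32.1 and 31.1 RPM against 23.3 and 18.95 RPM. It was read in 6.58% of hippocampal and 5.39% of cortical thinned cells, so that its level rests on few cells. Lipid transport genes, by contrast, had a median of -0.066 that turned to 0.071 under TMM scaling, with 6 higher and 9 lower. Abca1, the cholesterol exporter that loads apolipoprotein E, measured 594 and 730 RPM against 773 and 792 RPM. Npc1, which moves cholesterol out of lysosomes, measured 178.9 and 225.1 RPM against 236.8 and 263.2 RPM. Both lay below cortex in each lane. Of the 15 lipid transport genes, 3 lay below and 3 above by lanes, where 22.8% and 13.4% of all genes considered did.

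Genes at Alzheimer risk loci showed no common direction, with 9 higher and 11 lower of 20 and a median log2 ratio of -0.050, or 0.087 under TMM scaling. Picalm, a clathrin assembly gene (chromosome 7, positions 90130213 to 90213465, plus strand), was read in most cells and lower in hippocampus, at 215.9 and 211.8 RPM in hippocampus and 359.01 and 360 RPM in cortex. Its ratio was 0.594 (0.586 to 0.603), and it was read in 63.01% (57.5% to 68.3%) of hippocampal and 75.1% (70.2% to 79.7%) of cortical thinned cells. Cd33, a sialic acid receptor gene, measured 1378 and 1411 RPM against 1725 and 1609 RPM. Higher in hippocampus were Bin1, a membrane-bending protein gene, at 674 and 647 RPM against 515 and 570 RPM, and Cass4, a scaffold protein gene, at 26.9 and 52.7 RPM against 14.8 and 19.6 RPM. These 4 genes had no overlap of lanes, as was the case for 3 higher and 6 lower genes of the list, beside 13.4% and 22.8% of all genes considered. Without mglia33 the list median was 0.014.

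The lists of glycolysis and of cytosolic ribosomal proteins lay near 0. Glycolysis had a median log2 ratio of -0.020 over 15 genes, and cytosolic ribosomal proteins had -0.044 over 20, which turned to 0.12 and 0.093 under TMM scaling. Nuclear respiratory chain genes had 0.13 over 19. Immediate early genes, which dissociation can switch on, had 0.09 over 17, with 2 above and 3 below by lanes, beside 13.4% and 22.8% of all genes considered. Jun measured 62.7 and 54.98 RPM against 74.2 and 82.6 RPM. Atf3, a stress-induced factor, measured 26.8 and 35.3 RPM against 23.5 and 16.4 RPM, so members of this list went both ways.

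The largest differences among the 5987 genes were carried by a minority of cells. Tfrc, the transferrin receptor through which cells take up iron (chromosome 16, positions 32608920 to 32632794, plus strand), stood out among the lower genes by its level. It measured 17.6 and 250.97 RPM in hippocampus and 495 and 558 RPM in cortex, and cortex was 3.67-fold higher (3.62 to 3.73). Of the hippocampal reads 88.3% came from 1 cell of mglia36, and with the highest cell of each tissue left out the log2 ratio went from -1.87 to -4.80. It was read in 21 hippocampal thinned cells (6.58%, 4.12% to 9.89%) and 67 cortical ones (20.1%, 15.9% to 24.8%). By lane the shares were 4.91% and 8.33% against 18.8% and 21.3%, so every lane showed the order. In APP/PS1 mice of 17 months Tfrc lay between 4.37 and 12.3 RPM in all lanes of both tissues.

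The other 14 of the 15 lowest genes had cortical levels of 20.3 to 56.8 RPM. Their log2 ratios ran from -2.06 for Ncoa1 to -1.58 for Ddx55. Ncoa1, a nuclear receptor coactivator gene, measured 5.15 and 5.23 RPM in hippocampus and 21.9 and 24.5 RPM in cortex. Anks1 measured 14.3 and 4.91 RPM against 22.9 and 47.7 RPM and was read in 6.27% against 17.4% of thinned cells. Atg7, an autophagy enzyme gene, measured 5.99 and 17.1 RPM against 30.1 and 58.3 RPM and was read in 8.46% against 16.8%. Olfr111, of the olfactory receptor family, whose members share sequence, was read in 11.6% against 23.95%. The others were Gnl3l, Terf2, Uri1, Kif2a, Raly, Zfp951, Parp4, Zbtb43, Ercc5 and Ddx55. All were lower in both hippocampal lanes than in either cortical lane, as the choice of genes required.

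Among the 15 highest genes the log2 ratios ran from 1.87 for AW146154 to 1.26 for Trp53rka. AW146154 varied between lanes, at 18.8 and 40.3 RPM in hippocampus and 0.743 and 14.7 RPM in cortex, and its log2 ratio was 1.02 without mglia33 and 4.64 without mglia34. Mis12, a kinetochore protein gene, measured 52.4 and 62.004 RPM in hippocampus and 16.4 and 19.1 RPM in cortex, a ratio of 3.24 (3.10 to 3.39). It was read in 11.3% (8.03% to 15.3%) against 3.89% (2.09% to 6.56%) of thinned cells. Gnl2, a nucleolar GTPase gene, had the highest level of the group, at 105.5 and 117.05 RPM against 50.7 and 39.9 RPM. Ints4, an Integrator subunit gene, measured 71.96 and 65.2 RPM against 26.9 and 27.1 RPM. The others were Recql, Zfp825, Nploc4, Kifap3, Ccdc137, Eefsec, Trmt12, Rsl1, Casp2 and Plekhm2. Zfp825, Rsl1, AW146154 and Trp53rka have close relatives in the mouse genome, so their reads may be shared with these.

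Genes read in most cells give differences that single cells hardly move, and the genes named here were chosen after their values were seen. In hippocampus Arsb, a lysosomal sulfatase gene (chromosome 13, positions 93771630 to 93943016, plus strand), measured 378.2 and 401 RPM against 221.8 and 246.7 RPM, a ratio of 1.67 (1.64 to 1.69). Gpr183, an oxysterol receptor gene, measured 388 and 363.6 RPM against 250.6 and 226.4 RPM. Tmem63a, Sdf4, Eef2, Daglb, Syngr2, Cd34, Olfml3 and Tspan7 followed with ratios of 1.51 to 1.38. Each had its lanes in order, as did 16.6% of the 876 genes of this kind.

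Among genes lower in hippocampus, Zbtb20, a transcription factor gene, measured 123.03 and 156.7 RPM against 228.97 and 265.6 RPM, and Huwe1, a ubiquitin ligase gene, 131.2 and 98.6 RPM against 174.3 and 221.6 RPM. Notch2, a receptor gene, measured 130 and 116.4 RPM against 218.7 and 187.4 RPM. Lars2, a mitochondrial leucyl-tRNA synthetase gene, measured 798 and 842 RPM against 1865 and 1107 RPM. The ribosomal RNA share was also highest in cortex lane mglia33 (14.1%) but lowest in the other cortical lane (7.63%), and its part in the Lars2 level was not tested. Picalm, Wdfy4, Rpl36a, Kif21b and Kmt2c were others of this kind, with ratios of 0.594 to 0.624. The gene of the 876 that was 2-fold lower was Gm15266, at 2.62 and 3.71 RPM in hippocampus and 5.86 and 8.09 RPM in cortex.

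Markers of other cells were read to an unequal extent. The defining markers of T cells (Cd3e, Trac) and B cells (Ms4a1) had no read, while Cd79b and Ighm brought the B cell list to 639 and 635 RPM in hippocampus and 585 and 661 RPM in cortex. Astrocyte genes summed to 751 and 741.5 RPM against 656 and 764 RPM, nearly all of it from Slc1a3 and Glul. Neutrophil genes summed to 487 and 640 RPM against 569 and 465 RPM, through Csf3r, and oligodendrocyte genes to 254.3 and 301.5 RPM against 280.9 and 294.6 RPM. Endothelial genes, mostly Bsg, summed to 344.97 and 350.6 RPM against 301.2 and 303.6 RPM. All 3 monocyte and all 4 border-associated macrophage genes considered were lower in hippocampus, as were 7400 of all 12717 genes considered. Their lists had median log2 ratios of -1.30 and -1.15, which were -0.020 and -0.72 without a filter on low values. The border-associated macrophage median ranged from -1.66 to 0.033 with 1 lane left out. The monocyte median is the value of 1 gene and equals the lowest value of the immediate early list. Among the monocyte genes, Ccr2 measured 6.70 and 0.0122 RPM in hippocampus and 7.37 and 27.5 RPM in cortex. The summed monocyte list had 11.1 and 1.94 RPM against 17.5 and 34.9 RPM. Mrc1, the mannose receptor of border-associated macrophages, had no read in hippocampus and 9.23 and 0.334 RPM in the cortical lanes, where it was read in 7 thinned cells (2.10%). A count of 0 thinned hippocampal cells allows a share of up to 0.9404%. Other markers of these macrophages, Cd163 and Lyve1, had no read in either tissue, and the sum of their list, 713 and 580.2 RPM against 708 and 629.3 RPM, was nearly all Stab1. Choroid plexus and ependymal genes summed to 23.2 and 2.08 RPM against 3.68 and 0.227 RPM. Ttr, a choroid plexus gene, was the only 1 of them with a mean of 1 RPM or more. It was at 19.7 and 2.05 RPM in hippocampus and at 0 in cortex, so the cortical sum came from other members. Neuronal markers summed to 51.4 and 46.1 RPM against 22.7 and 82.2 RPM. The part of such cells in the results above was not tested.

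The same 2 regions were also read in APP/PS1 mice of 17 months, which keep Apoe, in lanes shared by both tissues. The ratios there are set beside those of the knockout, and their difference was not tested. On the same 12717 genes, 917 were 2-fold higher in hippocampus (7.21%) and 1023 were 2-fold lower (8.04%). Of the 19 activated genes considered, 18 were lower in the APP/PS1 hippocampus, 9 of them by 2-fold or more, with a median log2 ratio of -0.98, against -0.03 in APP/PS1-ApoeKO. Of all 12717 genes, 6312 were lower in the APP/PS1 hippocampus. By pairing of lanes the APP/PS1 median ran from -0.75 to -0.53, which does not include the value of the summed lanes. Clec7a measured 32.6 and 108.1 RPM in the APP/PS1 hippocampus and 245.6 and 173.8 RPM in its cortex, and Cst7 147.3 and 109.3 RPM against 401 and 375.5 RPM. Cst7 was thus lower in hippocampus in both genotypes, whereas the lanes of Clec7a overlapped in APP/PS1-ApoeKO and did not in APP/PS1.

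Homeostatic genes leaned towards hippocampus in both genotypes, with 16 of 18 higher and a median of 0.12 in APP/PS1 against 0.23 in APP/PS1-ApoeKO. Of all 12717 genes, 6261 were higher in the APP/PS1 hippocampus. Olfml3 measured 1901 and 2066 RPM in the APP/PS1 hippocampus and 1633 and 1645 RPM in its cortex. Glycolysis had -0.54 in APP/PS1 against -0.02, and the chemokine and cytokine list -0.59 against 0.48. That 0.48 rested on single cells. It was -0.13 with the highest cell of each gene left out and -0.09 without mglia35. Interferon genes had 0.30 against 0.04, with a range over pairings of -0.93 to 0.55 in APP/PS1.

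**Figure D5:**
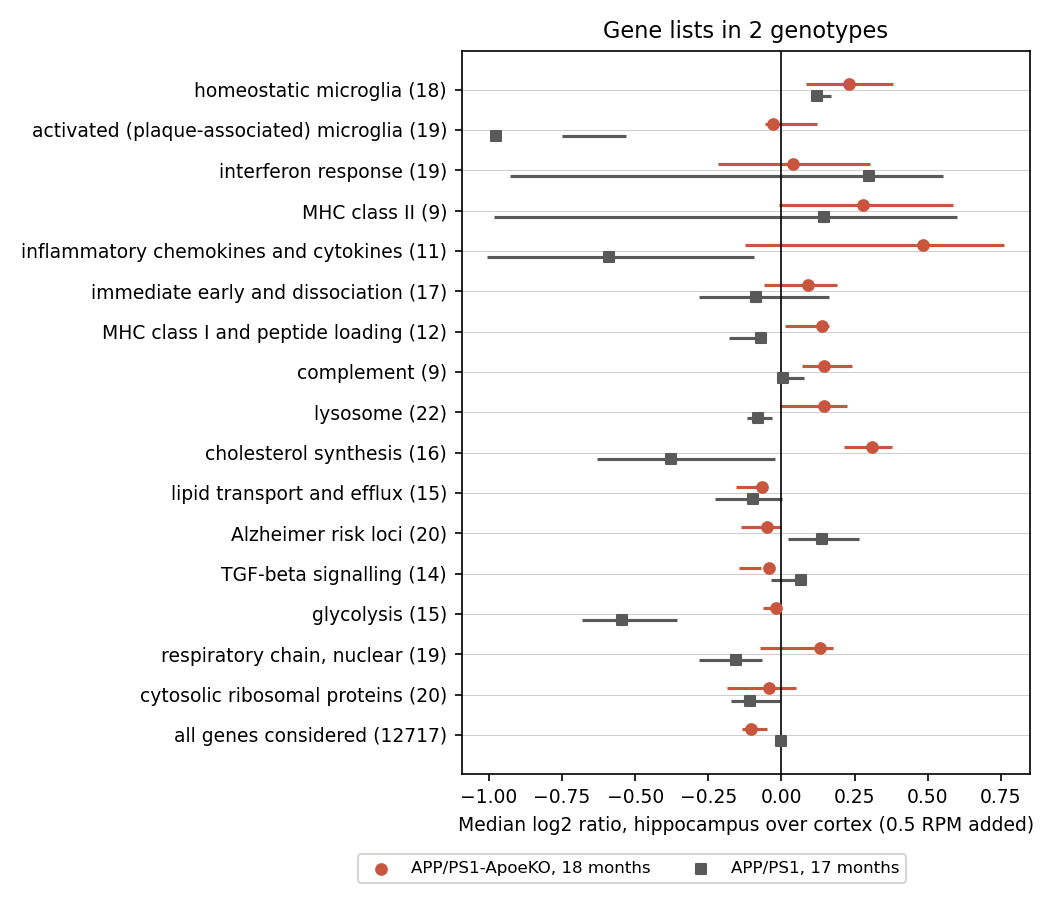
Median log2 ratio of hippocampus over cortex (x axis) for 16 gene lists and all genes, with the number of genes in brackets; red circles are APP/PS1-ApoeKO, grey squares APP/PS1, and lines span the medians of the 4 pairings of lanes, which need not include the value of the summed lanes. The activated list lies at -0.03 in APP/PS1-ApoeKO and at -0.98 in APP/PS1, and cholesterol synthesis at 0.31 and -0.38.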

How the data were processed

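The deposited table holds whole-number read counts per gene and cell, made by the authors. The submitters' processing notes list STAR (2.5.2), featureCounts (1.5.1), Seurat (2.3.1) and mm10, with no roles. Whether counting used strand is not stated, so overlapping and antisense genes can share reads. Counts came from 321 hippocampal cells (165 and 156 by lane) and 334 cortical cells (165 in mglia33 and 169 in mglia34), and 0 columns lacked a sample. Reads were added up within each lane or tissue and divided by the total, as RPM. Log2 ratios had 0.5 RPM added, and genes had a mean of 1 RPM or more. Shares of cells, in 319 hippocampal and 334 cortical cells, were taken after thinning each cell to 100000 reads, which left out 2 hippocampal cells, and a share of 0 has the limit that 3 cells give. With 1 sample per tissue no p-value was computed. Intervals are at 95%. The ratio code was tested on simulated data. Python 3.11.15, scipy 1.17.1, R 4.3.3 and edgeR 4.0.16 (TMM factors only) were used, with GENCODE coordinates on GRCm38, the assembly of mm10.

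The comparison, its 30 gene lists of 434 genes and its rules were chosen with earlier results of these data known. Named were list members, the 15 highest and 15 lowest log2 ratios among genes of 20 RPM or more, read in 10% or more of the cells of 1 tissue and with 1 direction in all 4 pairings of lanes, and 3 genes per direction between the cortical lanes. Predicted genes and pseudogenes, mitochondrial genes and ribosomal RNA were counted and not named, apart from Gm15266, the widely read gene that was 2-fold lower. Some list members and named genes are not reported here. Genes read in 50% or more of cells were added after their values were seen. Alternatives changed the lanes, weights, scaling, cells, pseudocount, filters and fold. In each of them the filter on the mean level was applied again, so the members of a list could change.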

Additional observations from a re-analysis of the deposited data

Results flagged for a closer look

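The results below differed between the genotypes in that all 4 pairings of a hippocampal with a cortical lane went 1 way in APP/PS1-ApoeKO at 18 months and the opposite way in APP/PS1 at 17 months. These differences were not tested, the genotypes as compared here differ in age and lane, and 1 tissue pair per genotype allows no estimate of how often chance gives such a pattern. Rsl1, Plekhm2, Eef2, Daglb, Tspan7, Lars2, Zbtb20 and Wdfy4 had been chosen with 1 direction in all 4 pairings of APP/PS1-ApoeKO. For these genes only the direction in APP/PS1 was not set by the choice.

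Among lists, the median log2 ratio of hippocampus over cortex was 0.31 for cholesterol synthesis in APP/PS1-ApoeKO and -0.38 in APP/PS1. With genes filtered again, the former was -0.14 without mglia36 and 0.022 without mglia33. For MHC class I and peptide loading the medians were 0.14 and -0.07. For Alzheimer risk loci they were -0.050 and 0.14, and the former was 0.087 under TMM scaling and 0.014 without mglia33.

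Higher in hippocampus in APP/PS1-ApoeKO and lower in APP/PS1 were the lysosomal genes Ctsd (log2 ratio 0.21 and -0.16), Cd68 (0.14 and -0.29) and Hexa (0.31 and -0.20). The antigen presentation genes H2-D1 (0.16 and -0.32), H2-T23 (0.38 and -0.22) and H2-DMb2 (0.43 and -2.35) were of the same kind, the last of them at no more than 7.36 RPM in any APP/PS1 lane. So were Eef2, an elongation factor gene (0.55 and -0.36), Daglb, a diacylglycerol lipase gene (0.53 and -0.34), Tspan7 (0.47 and -0.29), Rsl1 (1.29 and -2.74) and Plekhm2 (1.28 and -0.27).

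Lower in hippocampus in APP/PS1-ApoeKO and higher in APP/PS1 were the homeostatic genes Siglech (log2 ratio -0.13 and 0.08), Sall1 (-0.15 and 0.20) and Mef2c (-0.28 and 0.11). Cd33 (-0.25 and 0.09) and Inpp5d, a phosphatase gene of the same risk list (-0.089 and 0.23), went the same way. Ccr2 had -2.35 and 0.91, read in 4 hippocampal and 11 cortical thinned cells of APP/PS1-ApoeKO. Lars2 had -0.84 and 0.23, Zbtb20 -0.81 and 0.39 and Wdfy4 -0.74 and 0.54. Under TMM scaling the APP/PS1-ApoeKO values of Siglech and Inpp5d turned to 0.011 and 0.049.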

How the results depend on the processing

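The comparison has 1 sample per tissue, and depth and tissue share lanes, so directions rest on lane order alone. The lanes of a tissue also differ in titled plates, and the labels do not say whether they differ in animals. The source of the spread between lanes therefore cannot be told. Genes read in few cells are limited by the number of cells. No paired analysis was possible because each tissue is 1 sample and the labels give no replicate numbers. With 1 lane left out, which leaves fewer cells of a tissue, 7.13% to 9.48% of genes were 2-fold higher and 11.5% to 14.5% were 2-fold lower, and the higher ones were 1198 genes without cortex lane mglia33 and 1200 without mglia34, against 791. The shares of higher and lower genes were 3.89% and 5.98% with 2 RPM added (495 and 761 genes), 6.14% and 9.78% without a filter (1245 and 1982), 1.99% and 3.56% with a mean of 10 RPM or more, 12.3% and 20.8% at 1.5-fold (1562 and 2642), 2.97% and 4.34% at 3-fold, and 0.852% and 1.92% in the 5987 genes with 20 RPM and reads in 10% of cells, a set chosen after seeing the data. TMM scaling gave a median log2 ratio of 0.37 for homeostatic, 0.11 for activated and 0.21 for immediate early genes. With 1 lane left out these medians ranged from 0.16 to 0.34, from -0.40 to 0.062 and from -0.041 to 0.24, and the chemokine and cytokine median from -0.086 to 0.59. Leaving out the highest cell of each gene gave -0.13 for chemokines and cytokines and -0.060 for immediate early genes, which were at -0.052 among genes of at least 10 RPM. The border-associated macrophage median, -1.15, ranged from -1.66 to 0.033 with 1 lane left out. Of the genes past 2-fold, these turned with 1 lane left out, over these ranges of log2 ratio: Lpl -0.79 to 3.14, Gpnmb -0.020 to 6.81, Lgals3 -3.06 to 4.28, Ch25h -1.75 to 3.96, Cd74 -0.028 to 1.62, Ccl2 -1.17 to 3.42, Ccl3 -0.15 to 2.17, Ccl4 -0.51 to 3.32 and Rps6ka3 -1.95 to 1.22. Without the highest cell Lgals3 was at 0.29, Ccl3 at -0.12 and Ccl4 at -0.22. The cause of these changes was not tested. Of 45 named genes past 2-fold, 36 kept their sign in every alternative run. The 15 highest and 15 lowest genes are among the 45. They were chosen with 1 direction in all 4 pairings of lanes, so leaving out 1 lane could not turn their sign.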

Other observations

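Some genes that separated the tissues in APP/PS1-ApoeKO stood at another level in both tissues of APP/PS1, and these values were picked after they were seen. Il6 measured 38.7 and 42.1 RPM in the APP/PS1-ApoeKO hippocampus and 18.97 and 26.8 RPM in its cortex, but 6.55 to 9.28 RPM over the 4 lane and tissue parts of APP/PS1. Arsb went the other way, at 221.8 to 401 RPM in APP/PS1-ApoeKO and 1019 to 1194 RPM in APP/PS1. Among the cells with counts compared here, the genotypes came from different lanes and ages, and for these levels neither can be told apart from the genotype.

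Purine-sensing genes, through which microglia detect nucleotides from injured cells, had a median log2 ratio of 0.10 over 9 members, 7 of them higher in hippocampus, where 41.8% of all genes considered were. The median ran from -0.13 to 0.41 over pairings of lanes, and it was below 0 without mglia33 (-0.019) and without mglia35. P2rx4, an ATP-gated channel gene, measured 144.1 and 155.5 RPM in the hippocampal lanes and 103.2 and 114.2 RPM in the cortical lanes of APP/PS1-ApoeKO, a ratio of 1.38. P2rx7, the related channel gene, measured 276.5 and 320 RPM against 324.7 and 351.4 RPM, below both cortical lanes. Phagocytic receptor genes had a median of -0.068, or 0.069 under TMM scaling, over 15 members, and it was 0.045 without mglia33 and 0.017 without mglia36. By lanes 4 members lay below and 2 above, where 22.8% and 13.4% of all genes considered did, with Fcer1g, an adaptor of Fc receptors, at 1233 and 1061 RPM against 1413 and 1394 RPM.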
